A study of Mus musculus with 21 samples.

Results

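The 9 genes described here are *Hmox1*, *Nqo1*, *Gclm*, *Gclc*, *Srxn1*, *Txnrd1*, *Pgd*, *Taldo1* and *Prdx1*, a set of antioxidant genes and genes of the pentose phosphate pathway that are commonly used to read out the transcription factor NRF2. They were chosen by name, with earlier results of these data known, so shares over all genes are given as background and not as a test. Each was matched by 1 transcript cluster of the array, so that all 9 of 9 were measured among 19505 genes. Their RNA was measured on 21 Affymetrix arrays in splenic CD8+ T cells of wildtype mice. T cells were activated with beads that engage CD3 and CD28 and cultured for 48 h, and CD8+ cells were then isolated again by magnetic separation (MACS). The age, sex and strain of the mice are not given in the sources used here.

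The cultures differed in their medium, with 7 biological replicates for each of 3 media. The control was fresh complete RPMI medium. The medium called AML medium was the sterile-filtered supernatant of WEHI 3B cells, a mouse myelomonocytic leukaemia line that stands here for acute myeloid leukaemia (AML) as a single line. DC medium was the supernatant of dendritic cells grown from bone marrow (BMDCs), and both supernatants had been collected after 48 h of culture. The labels name the reducing agent 2-mercaptoethanol (2-ME) for the T cell medium and do not say whether the conditioned media held it. They call the replicates biological but do not say whether these came from separate mice. The p-values therefore measure the spread between these samples, which may be separate mice or separate cultures from the same mice.

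NRF2 is held low by KEAP1, an adaptor that sends it to degradation, and it accumulates when electrophiles or oxidants modify KEAP1. With small MAF proteins it binds antioxidant response elements and drives genes that make glutathione, reduce thioredoxin and regenerate NADPH, while BACH1 represses part of the same genes, *Hmox1* above all, until haem releases it. Activated T cells use these systems during growth, when glycolysis, the pentose phosphate pathway and oxidant production rise together.

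Promoter sequences are shown for the members in which the core of the antioxidant response element was found, since that element is what the set is named for. The core was searched as TGACNNNGC on both strands of 300-base RefSeq promoter windows (build GRCm38.p6), each running from 250 bases before to 50 bases after a start site. Windows were matched for 7 of the 9 genes, 10 windows in all, and not for *Hmox1* and *Gclc*. A match was present in 5 of the 10 windows, in *Gclm*, *Srxn1*, *Txnrd1*, *Pgd* and *Prdx1*, and in 12.4% of all 32851 windows of that length. Each sequence below runs 5′ to 3′ on the strand that carries the match, with the core in capitals.
Gclm chr3:122245413-122245441 (minus strand): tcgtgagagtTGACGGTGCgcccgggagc
Srxn1 chr2:152105542-152105570 (minus strand): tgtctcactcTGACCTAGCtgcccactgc
Txnrd1 chr10:82859104-82859132 (minus strand): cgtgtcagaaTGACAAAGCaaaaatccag
Pgd chr4:149166061-149166089 (minus strand): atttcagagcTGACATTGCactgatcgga
Prdx1 chr4:116685456-116685484 (minus strand): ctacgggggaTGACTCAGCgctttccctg

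Counted from the start site as 1 and without a position 0, the matches lay at -134 in *Gclm*, -92 in *Txnrd1*, -133 in *Prdx1*, 29 in *Srxn1* and 4 in *Pgd*. The *Txnrd1* match lay in 1 of its 3 windows and the *Pgd* match in 1 of its 2. The related AP-1 element TGAGTCA, searched in the same way, was found in *Srxn1* and *Prdx1* and in 5.2% of all windows. The *Prdx1* match at -131 overlaps the antioxidant response core shown above on the other strand. The HIF core ACGTG was found in *Gclm* alone among the 7 genes, and in 19.6% of all windows. These matches are descriptions of letters in a short window, and no binding was measured.

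Across all genes, 541 of 19505 (2.77%) passed an adjusted p of 0.05 between AML and fresh medium, 253 of them higher and 288 lower, or 284 higher and 189 lower with each array centred on its median. Of the 9 genes, 1 passed, *Hmox1*, which was lower (1.48% of all genes were called lower). Between AML and DC medium 466 genes passed (2.39%), and 2 of the 9 genes, *Hmox1* and *Pgd*, both lower in AML medium, as were 1.26% of all genes. Between DC and fresh medium 0 genes passed (0%), 1251 had an unadjusted p under 0.05 (6.41%), and among the 9 genes 1 did, *Taldo1*. The tests were limma's moderated tests with Benjamini-Hochberg adjustment over all genes. The median difference of the 9 genes was 0.07 on the log2 scale between AML and fresh medium and 0.08 between DC and fresh medium, against -0.01 over all genes in both comparisons. Both comparisons against fresh medium share its 7 arrays, and the AML arrays enter both comparisons with AML medium. In these bulk samples, fewer cells of a type and less RNA per cell cannot be told apart.

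**Figure D1:**
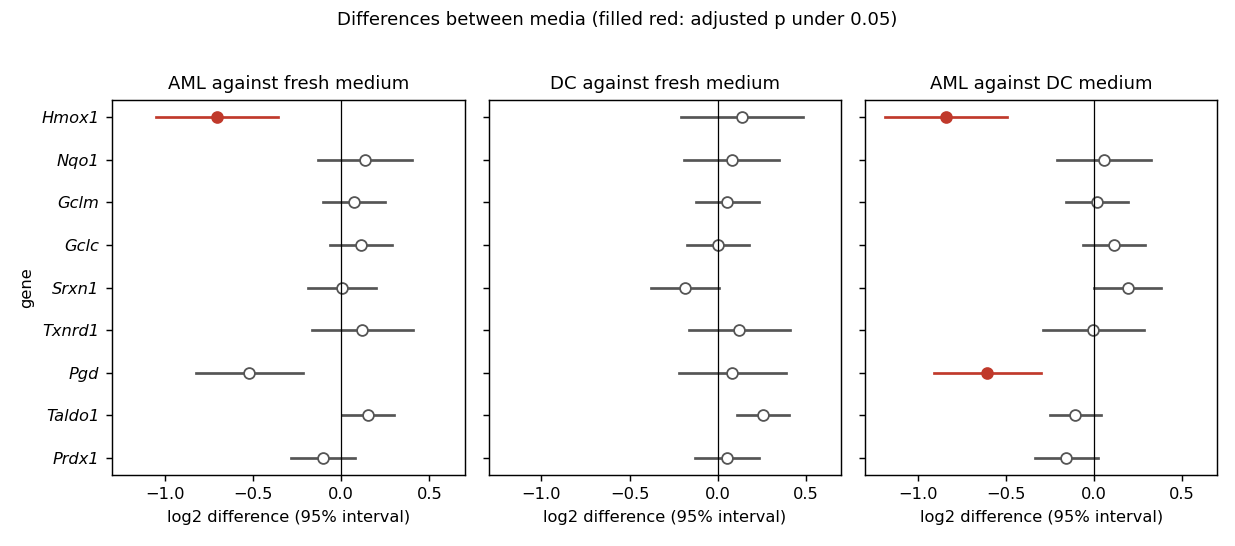
Log2 differences of the 9 genes between media, with 95% intervals, in 3 panels (AML against fresh, DC against fresh, AML against DC); filled red points passed an adjusted p of 0.05. *Hmox1* (-0.71 and -0.84) and *Pgd* (-0.52 and -0.61) lie to the left in both panels that involve AML medium, and all other points lie between -0.19 and 0.26.

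The labelled cell type was checked against its markers. Listed as CD8 T cell markers were *Cd3e*, *Cd3d*, *Cd3g*, *Cd8a* and *Cd8b1*, of which the 3 CD3 chains are shared with CD4 T cells. The mean log2 level of these 5 markers lay between 11.30 and 11.56 on all 21 arrays and none of them was called in any comparison. *Cd8a* and *Cd8b1* differed by 0.04 and -0.04 between AML and fresh medium. None of 9 measured macrophage markers, none of 4 B cell markers and none of 3 erythroid markers was called between AML and fresh medium, and the mean level of the macrophage list was 3.62 to 3.81 in fresh, 3.56 to 3.80 in AML and 3.54 to 3.71 in DC medium. RMA values have no true zero, so absence of a marker could not be read from them. Markers that did move after AML medium were *H2-Ab1*, 1 of 11 measured dendritic and myeloid markers, which fell by 1.33 (adjusted p = 0.0168), *Cd4*, 1 of 3 CD4 T cell markers, which rose by 0.79 (adjusted p = 0.0150), and *Eomes*, 1 of 4 natural killer cell markers and also a transcription factor of CD8 T cells, which rose by 0.71 (adjusted p = 0.00844). The mean level of the dendritic and myeloid list was 4.70 to 4.98 in fresh and 4.58 to 4.94 in AML medium, that of the CD4 list 6.02 to 6.56 and 6.39 to 6.99, and that of the natural killer list 4.34 to 4.59 and 4.54 to 4.82. Of the 11 dendritic and myeloid markers 4 were lower and 7 higher in AML than in fresh medium (median difference 0.06). All 3 CD4 markers were higher (median difference 0.31). The 4 natural killer markers had differences from 0.0003 to 0.71 (median 0.13), the largest being that of *Eomes*. The part of these markers in the results for the 9 genes was not tested. The description label speaks of CXCL12-abundant reticular cells, in conflict with every other label. Principal components were taken of the deviations from the group means over all genes. On the first and larger component, replicates 1 to 3 of all 3 media had loadings of 0.07 to 0.45. Replicates 4 to 7 had loadings of -0.29 to 0.0007. On the second component, AML replicates 4 and 5 had loadings of -0.55 and -0.53 and the remaining arrays of -0.30 to 0.32. Results for the 9 genes are given with and without AML replicates 4 and 5.

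**Figure D2:**
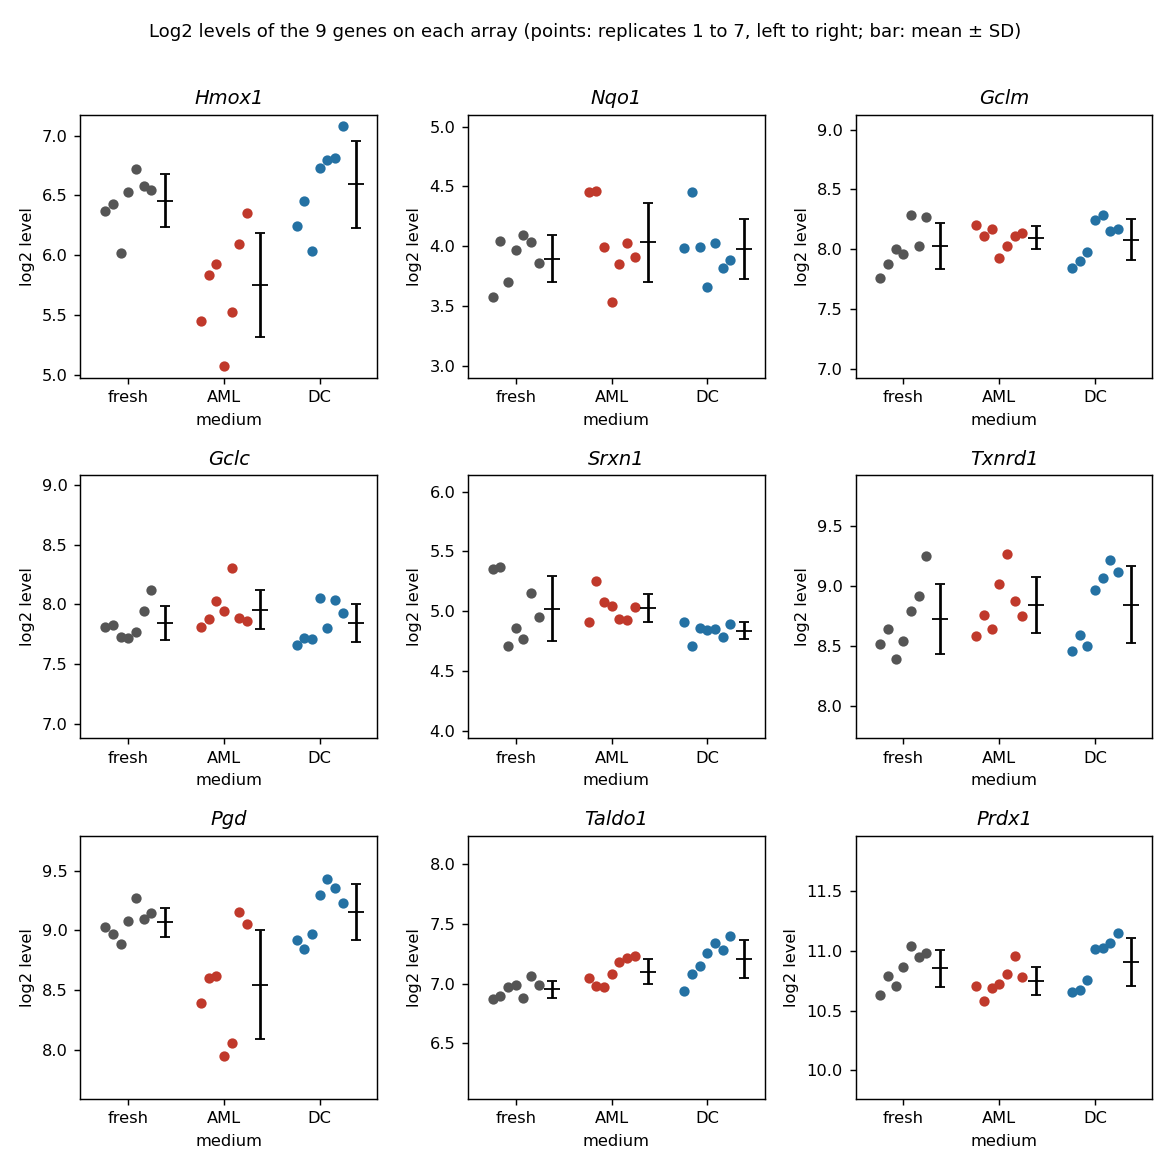
Log2 level of each of the 9 genes on every array, by medium, with replicates 1 to 7 from left to right and the mean ± SD (n = 7) as a bar; every panel spans the same log2 range. *Hmox1* and *Pgd* are low on AML replicates 1 to 5, and the other 7 genes overlap between media except *Srxn1*, whose AML values all lie above the DC values.

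*Hmox1* encodes haem oxygenase-1, which breaks haem down to biliverdin, carbon monoxide and iron (chr8:75093618-75100593, GRCm38.p6). Its lowest, median and highest log2 levels were 6.02, 6.53 and 6.72 in fresh medium. They were 5.07, 5.83 and 6.35 in AML medium and 6.03, 6.73 and 7.08 in DC medium. AML replicates 1 to 5 lay below every fresh and every DC array, whereas AML replicates 6 and 7 lay within the fresh range. *Hmox1* fell 1.63-fold after AML medium relative to fresh medium (log2 difference -0.71, SE 0.17, adjusted p = 0.0223), from 6.46 ± 0.22 to 5.75 ± 0.43 (SD, n = 7). It was 1.79-fold lower than in DC medium (-0.84, SE 0.17, adjusted p = 0.00849). The DC and fresh levels, 6.59 ± 0.37 and 6.46 ± 0.22, differed by 0.14 with a 95% interval of -0.21 to 0.48. The call against fresh medium was lost without AML replicate 4 (-0.59, adjusted p = 0.0600), without AML replicate 5 (-0.67, adjusted p = 0.0622) and without both (-0.53, adjusted p = 0.171). Against DC medium it was lost without both (-0.66, adjusted p = 0.0661) and held without either 1 of them.

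*Pgd* encodes 6-phosphogluconate dehydrogenase, which produces NADPH in the oxidative branch of the pentose phosphate pathway (chr4:149149991-149166705). Its levels were 8.89 at the lowest, 9.08 at the median and 9.27 at the highest in fresh medium. In AML medium they were 7.95, 8.60 and 9.15, and in DC medium 8.85, 9.23 and 9.43. The AML arrays divided as for *Hmox1*, with replicates 1 to 5 below every fresh and DC array and replicates 6 and 7 within the fresh range. *Pgd* was 1.52-fold lower in AML than in DC medium (-0.61, SE 0.15, adjusted p = 0.0255). The difference from fresh medium, -0.52 (SE 0.15, 95% interval -0.82 to -0.22), just missed the threshold at an adjusted p of 0.0546. It passed without AML replicate 6 (-0.62, adjusted p = 0.00989) or replicate 7 (-0.61, adjusted p = 0.0179), and it was smaller without AML replicates 4 and 5 (-0.30, adjusted p = 0.362). It also passed with the replicate number as a block, with a further quantile normalization and after leaving out genes below the 25th percentile. Over all genes 1012, 612 and 646 passed in these settings, against 541 in the main fit. The call against DC medium was lost in 7 of 21 runs that left out 1 array, AML replicate 1, 4 or 5 or DC replicate 4, 5, 6 or 7, at adjusted p-values of 0.0559 to 0.0762, and without AML replicates 4 and 5 together (-0.39, adjusted p = 0.210).

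The SD of *Pgd* was 0.46 in AML medium, 3.66 times that in fresh medium (0.12), and for *Hmox1* the ratio was 1.94. On the 7 AML arrays *Hmox1* lay at 5.45, 5.83, 5.92, 5.07, 5.53, 6.10 and 6.35 in replicates 1 to 7. *Pgd* lay at 8.39, 8.60, 8.62, 7.95, 8.06, 9.15 and 9.05 on the same arrays. Replicate 4 had the lowest level of both genes and replicates 6 and 7 the 2 highest. Over all 21 arrays the 2 genes had a Pearson r of 0.922 and a Spearman rho of 0.892, the highest of 36 pairs among the 9 genes, for which the median r was 0.17. Without AML replicates 1 and 4, the arrays farthest from the median of *Hmox1*, r was 0.866. Within fresh, AML and DC medium it was 0.90, 0.923 and 0.755 over 7 arrays each. Within DC medium *Hmox1* had a higher r with *Txnrd1* (0.916), *Prdx1* (0.885) and *Taldo1* (0.824) than with *Pgd*. In fresh and in DC medium, *Hmox1* and *Pgd* were both higher in all of replicates 4 to 7 than in all of replicates 1 to 3. The part of that step in their r was not tested. The pair was picked for its r, so no p is given, and the arrays share their group and normalization.

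**Figure D3:**
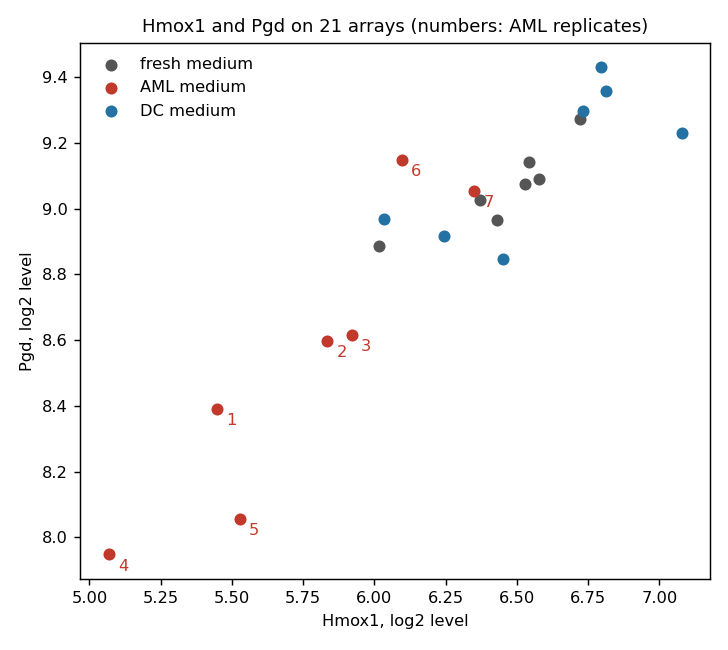
Log2 level of *Pgd* (vertical axis) against that of *Hmox1* (horizontal axis) on the 21 arrays, coloured by medium, with the replicate number beside each AML point. AML replicates 1 to 5 lie at the lower left, down to 5.07 and 7.95 in replicate 4, and AML replicates 6 and 7 lie among the fresh and DC arrays.

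The other enzyme of the pentose phosphate pathway in the set, *Taldo1*, encodes transaldolase of the non-oxidative branch (chr7:141392160-141402976). Its levels ran from 6.88 to 7.06 in fresh medium with a median of 6.97. They ran from 6.97 to 7.23 (median 7.08) in AML and from 6.94 to 7.40 (median 7.26) in DC medium. In DC medium 6 of 7 arrays lay above every fresh array. The difference between DC and fresh medium was 0.26 (SE 0.07, 95% interval 0.11 to 0.40, unadjusted p = 0.00147) and did not pass after adjustment (adjusted p = 0.650). The difference between AML and fresh medium was 0.15 (95% interval 0.00 to 0.30, adjusted p = 0.302), opposite in sign to that of *Pgd*.

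*Gclc* and *Gclm* encode the catalytic and the modifier subunit of glutamate-cysteine ligase, the rate-limiting enzyme of glutathione synthesis (chr9:77754535-77794489 and chr3:122245487-122267215). *Gclc* ran from 7.72 to 8.12 (median 7.81) in fresh medium, from 7.81 to 8.30 (median 7.89) in AML medium and from 7.66 to 8.05 (median 7.81) in DC medium. *Gclm* ran from 7.76 to 8.29 (median 8.001), from 7.93 to 8.20 (median 8.11) and from 7.84 to 8.29 (median 8.15) in the same order. All 3 media overlapped for both genes. Between AML and fresh medium *Gclc* differed by 0.11 (95% interval -0.06 to 0.29, adjusted p = 0.574) and *Gclm* by 0.07 (-0.11 to 0.25, adjusted p = 0.763). Between DC and fresh medium the intervals were -0.18 to 0.18 for *Gclc* and -0.12 to 0.23 for *Gclm*. These intervals leave out, for both genes, a difference as large as that of *Hmox1* (-0.71).

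The thioredoxin branch of the set holds *Txnrd1*, the cytosolic thioredoxin reductase (chr10:82833951-82897724), *Prdx1*, a peroxiredoxin that removes hydrogen peroxide (chr4:116685599-116700000), and *Srxn1*, sulfiredoxin, which restores overoxidised peroxiredoxins (chr2:152105524-152111376). *Txnrd1* had levels of 8.39 to 9.26 (median 8.64) in fresh, 8.58 to 9.27 (median 8.76) in AML and 8.46 to 9.22 (median 8.97) in DC medium. *Prdx1* had levels of 10.63 to 11.04 (median 10.87), 10.58 to 10.96 (median 10.72) and 10.66 to 11.15 (median 11.01) in the same order. Both genes overlapped widely between the media. *Txnrd1* differed from fresh medium by 0.12 in AML (95% interval -0.17 to 0.41, adjusted p = 0.751) and by 0.12 in DC medium (-0.16 to 0.41, adjusted p = 0.938), and *Prdx1* by -0.10 (-0.28 to 0.08, adjusted p = 0.618) and 0.05 (-0.13 to 0.23, adjusted p = 0.961).

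*Srxn1* was the one gene of the 9 with groups that did not overlap. Its levels ran from 4.71 to 5.37 (median 4.95) in fresh medium, from 4.91 to 5.26 (median 5.04) in AML medium and from 4.71 to 4.91 (median 4.85) in DC medium. All 7 AML arrays lay above all 7 DC arrays, a pattern held by 0.436% of all genes, while the fresh arrays overlapped both groups. The lowest AML level and the highest DC level, 4.913 and 4.912, lay almost together. The difference between AML and DC medium was 0.19 (95% interval -0.00 to 0.38, adjusted p = 0.358) and did not pass the test, which takes its spread from all 3 groups. The SD was 0.27 in fresh, 0.12 in AML and 0.07 in DC medium. The difference between DC and fresh medium was -0.19 (-0.38 to 0.01, adjusted p = 0.787).

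*Nqo1* encodes a quinone reductase that is among the most used reporters of NRF2 activity (chr8:107388225-107403205). Its levels ran from 3.57 to 4.09 (median 3.97) in fresh, from 3.53 to 4.46 (median 3.99) in AML and from 3.66 to 4.46 (median 3.99) in DC medium. The groups overlapped, and the lowest and the highest of all 21 values were both AML arrays. It differed from fresh medium by 0.14 in AML (95% interval -0.13 to 0.40, adjusted p = 0.679) and by 0.08 in DC medium (-0.19 to 0.35, adjusted p = 0.961). Whether its transcript was detected on an array could not be read from RMA values.

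Without AML replicates 4 and 5, none of the 7 genes other than *Hmox1* and *Pgd* passed either. Their differences from fresh medium were then 0.27 for *Nqo1*, 0.12 for *Gclm*, 0.05 for *Gclc*, 0.02 for *Srxn1*, -0.00069 for *Txnrd1*, 0.14 for *Taldo1* and -0.11 for *Prdx1* (adjusted p = 0.453 to 0.999). Their differences from DC medium were 0.19, 0.06, 0.05, 0.20, -0.12, -0.12 and -0.16 in the same order (adjusted p = 0.594 to 0.934).

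Replicate numbers 1 to 3 and 4 to 7 differed for several of the genes within a medium. In DC medium all of replicates 4 to 7 lay above all of replicates 1 to 3 for 7 of the 9 genes, against 13.6% of all genes. In fresh medium this held for 3 of the 9 (7.74% of all genes) and in AML medium for 2 of the 9 (4.64%). The first principal component of the deviations from the group means, over all genes, also set replicates 1 to 3 apart from 4 to 7 in each medium. The labels give no meaning to the replicate numbers. Within replicates 1 to 3 alone *Hmox1* differed between AML and fresh medium by -0.54 (adjusted p = 0.112), and within replicates 4 to 7 alone by -0.83 (adjusted p = 0.116). *Pgd* differed by -0.42 and -0.59. Between AML and DC medium the *Hmox1* difference was -0.51 (adjusted p = 0.169) and -1.09 (adjusted p = 0.0405), and that of *Pgd* -0.38 (adjusted p = 0.0920) and -0.78 (adjusted p = 0.118). Both genes were lower in AML medium within each set.

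The other members differed in which of them moved together from array to array. *Gclc* and *Txnrd1* had the next highest r of the 36 pairs, 0.800 (rho 0.794), which was 0.717 without AML replicate 5 and fresh replicate 7 and 0.917, 0.768 and 0.844 within fresh, AML and DC medium. Among 18452 genes compared over the 21 arrays, the genes most like *Hmox1* were *Pgam1* (r = 0.940), a glycolytic mutase, *Me2* (0.931), a mitochondrial malic enzyme, and *Plcxd1* (0.930). Those most like *Pgd* were *Pgam1* (0.973), *Ak4* (0.968), an adenylate kinase, and *Pfkp* (0.966), a phosphofructokinase. *Txnrd1* was most like *Rpf2* (0.942), *Nme1* (0.941) and *Htra2* (0.940), and *Prdx1* most like *Mcm6* (0.953), a subunit of the replicative helicase, *Uchl5* (0.938) and *Nup85* (0.936). The closest gene had a lower r for *Gclc* (*Pop5*, 0.856), *Nqo1* (*Klrc3*, 0.853), *Gclm* (*Marchf5*, 0.840), *Taldo1* (*Hspa4*, 0.800) and *Srxn1* (*Fam83a*, 0.791). Each is the highest of many values and is given as a description.

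The regulators of NRF2 were measured as a list of 12 genes, of which 1 rose, none fell and 11 did not pass between AML and fresh medium (median difference -0.02). Over all genes 2.77% passed in that comparison. *Nfe2l2*, which encodes NRF2 itself, ran from 7.05 to 7.58 (median 7.33) in fresh and from 7.10 to 7.86 (median 7.38) in AML medium, a difference of 0.10 (SE 0.10, adjusted p = 0.708). *Keap1* differed by -0.23 (SE 0.09, adjusted p = 0.207). *Nfe2l1*, which encodes the related factor NRF1, a regulator of proteasome genes, lay between 8.95 and 9.32 (median 9.24) in fresh medium and between 9.33 and 10.06 (median 9.65) in AML medium. All 7 AML arrays lay above all 7 fresh arrays, as for 0.354% of all genes, although by a small margin. *Nfe2l1* rose by 0.50 against fresh medium (SE 0.11, adjusted p = 0.0168) and by 0.47 against DC medium (adjusted p = 0.0234). The first call was lost without AML replicate 5 (0.44, adjusted p = 0.0519) and without AML replicates 4 and 5 (0.34, adjusted p = 0.140), the second without AML replicate 4 or 5 or DC replicate 3 (adjusted p = 0.0546 to 0.0694) and without AML replicates 4 and 5 (0.32, adjusted p = 0.198). *Dpp3*, which encodes a peptidase that binds KEAP1, was lower in AML than in DC medium (-0.49, SE 0.10, adjusted p = 0.0129), and that call was lost without AML replicates 4 and 5 (-0.45, adjusted p = 0.0853).

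Of 23 other glutathione genes, 1 rose, 1 fell and 21 did not pass between AML and fresh medium (median -0.07), where 2.77% of all genes passed. *Gsta4*, a glutathione transferase, rose by 0.31 (SE 0.08, adjusted p = 0.0358), with 6 of 7 AML arrays above every fresh array. *Mgst3*, a microsomal glutathione transferase, fell by 0.41 (SE 0.11, adjusted p = 0.0442), with 5 of 7 arrays below. Both calls were close to the threshold. Leaving out 1 array ended that of *Gsta4* in 8 of 21 runs (fresh replicates 1, 2, 4 and 6, AML replicates 1, 2, 3 and 5; adjusted p = 0.0561 to 0.0838) and that of *Mgst3* in 12 (fresh replicates 1, 2, 4, 5 and 6, AML replicates 1, 3, 4 and 5, DC replicates 3, 4 and 5; adjusted p = 0.0501 to 0.124). Without AML replicates 4 and 5 *Gsta4* differed by 0.35 (adjusted p = 0.0697) and *Mgst3* by -0.28 (adjusted p = 0.311). *Slc7a11*, the cystine carrier that feeds glutathione synthesis, had levels of 4.50 to 4.79 in fresh, 4.77 to 5.48 in AML and 4.64 to 5.38 in DC medium, and its difference of 0.38 between AML and fresh medium did not pass (SE 0.11, adjusted p = 0.0572).

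Of 13 other thioredoxin and peroxiredoxin genes none passed between AML and fresh medium (median 0.01), where 2.77% of all genes passed. At that share, lists of this size with no call say little. Those with the largest test statistics were *Msrb1*, a methionine sulfoxide reductase (-0.40, adjusted p = 0.0557), and *Prdx4*, the peroxiredoxin of the endoplasmic reticulum (-0.40, adjusted p = 0.0995). None of 9 superoxide and catalase genes passed either (median 0.01), against the same 2.77% of all genes. Those at the top were *Ncf4*, a subunit of the phagocyte NADPH oxidase (0.30, adjusted p = 0.0577), and *Sod3*, the extracellular superoxide dismutase (-0.29, adjusted p = 0.222). At an unadjusted p under 0.05, 3 genes of each list passed. Over all genes that share was 15.9%.

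Of 13 other genes of the pentose phosphate pathway and of NADPH production, 1 fell, none rose and 12 did not pass between AML and fresh medium (median 0.08). The share of all genes that passed was 2.77%. *G6pdx*, *Tkt* and *Nnt* are not analysed here. *Me2* ran from 8.89 to 9.36 (median 9.26) in fresh and from 8.22 to 9.17 (median 8.73) in AML medium, with 5 of 7 AML arrays below every fresh array. It differed by -0.53 from fresh medium (SE 0.13, adjusted p = 0.0260) and by -0.56 from DC medium (adjusted p = 0.0202). The call against fresh medium was lost when fresh replicate 2, fresh replicate 4, fresh replicate 5, AML replicate 4 or AML replicate 5 was left out (adjusted p of 0.0506 to 0.0780), and the call against DC medium without AML replicate 4 or 5 or DC replicate 4 (adjusted p = 0.0504 to 0.0596). Without AML replicates 4 and 5 together the differences were -0.36 (adjusted p = 0.207) and -0.38 (adjusted p = 0.178). *Mthfd2*, a mitochondrial folate enzyme, was higher in AML than in DC medium by 0.56 (adjusted p = 0.0459), a call lost in 14 of 21 runs that left out 1 array (all but those without fresh replicates 1, 3 and 5, AML replicates 6 and 7 and DC replicates 4 and 5; adjusted p = 0.0501 to 0.135) and without AML replicates 4 and 5 (0.36, adjusted p = 0.358). Against fresh medium it differed by 0.47 (adjusted p = 0.0940).

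Of 12 other haem and iron genes, 1 fell, none rose and 11 did not pass between AML and fresh medium (median -0.06), against 2.77% of all genes passing. *Fech* encodes ferrochelatase, which inserts iron to complete haem. Its levels ran from 7.04 to 7.33 (median 7.14) in fresh, from 6.52 to 7.03 (median 6.85) in AML and from 6.92 to 7.33 (median 7.14) in DC medium. All 7 AML arrays lay below all 7 fresh arrays, as for 0.441% of all genes, although by a small margin (7.028 and 7.045). *Fech* fell by 0.38 against fresh medium (SE 0.08, adjusted p = 0.0117), and no single array ended that call, although it was lost without AML replicates 4 and 5 (-0.29, adjusted p = 0.0961). Against DC medium the difference was -0.33 (adjusted p = 0.0247), a call lost without AML replicate 4 or 5 or DC replicate 4, 5 or 7 (adjusted p = 0.0555 to 0.0739) and without AML replicates 4 and 5 (-0.24, adjusted p = 0.210). *Tfrc*, the transferrin receptor, differed by -0.35 from fresh medium (adjusted p = 0.288).

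Of 14 other genes known as NRF2 targets, 1 rose, 1 fell and 12 did not pass between AML and fresh medium (median -0.06), against 2.77% of all genes passing. *Nqo2*, which encodes a second quinone reductase, ran from 6.87 to 7.35 (median 7.01) in fresh, from 5.43 to 6.85 (median 6.57) in AML and from 6.94 to 7.33 (median 7.08) in DC medium. All 7 AML arrays lay below all 7 arrays of each other medium, and 0.379% of all genes showed this against DC medium. The margin to fresh medium was small (6.855 and 6.874). *Nqo2* fell 1.64-fold against fresh medium (-0.71, SE 0.16, adjusted p = 0.0196) and was 1.69-fold lower than in DC medium (-0.76, adjusted p = 0.0142). The first call was lost without AML replicate 5 (-0.60, adjusted p = 0.0557). *Ephx1*, a microsomal epoxide hydrolase, ran from 7.38 to 7.79 in fresh and from 7.64 to 8.86 in AML medium. It rose by 0.60 against fresh (SE 0.15, adjusted p = 0.0251) and by 0.59 against DC medium (adjusted p = 0.0260). Those calls were lost without fresh replicate 4 or AML replicate 4 or 5 (adjusted p = 0.0580 to 0.0694), and without AML replicate 3, 4 or 5 or DC replicate 4, 5 or 7 (adjusted p = 0.0532 to 0.0742). Without AML replicates 4 and 5 together *Ephx1* differed by 0.37 (adjusted p = 0.175) and 0.36 (adjusted p = 0.200), while *Nqo2* differed by -0.40 (adjusted p = 0.0482) and -0.44 (adjusted p = 0.0280). Within replicates 1 to 3 alone *Nqo2* differed from fresh medium by -0.22 (adjusted p = 0.323) and from DC medium by -0.40 (adjusted p = 0.0924). Within replicates 4 to 7 alone it differed from fresh medium by -1.08 and from DC medium by -1.02 (adjusted p = 0.0511 for the latter).

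**Figure D4:**
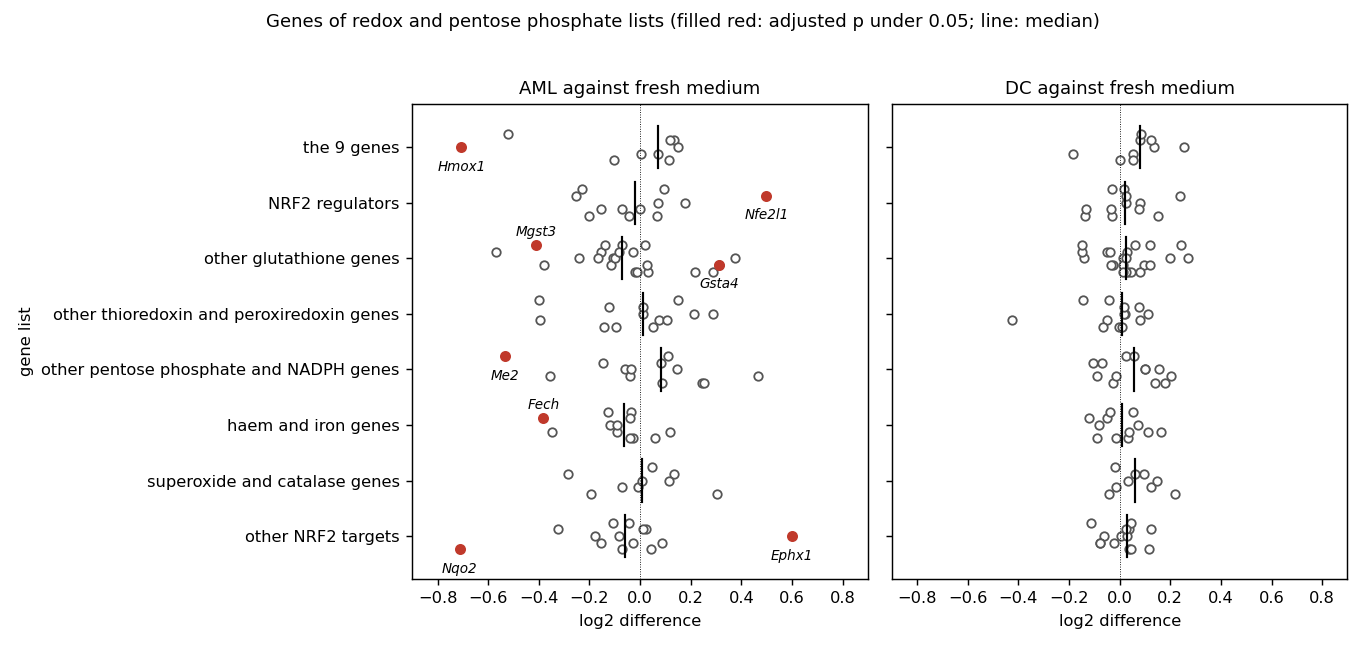
Log2 differences of each measured gene of the set and of 7 related lists, for AML (left) and DC (right) against fresh medium; filled red points passed an adjusted p of 0.05 and vertical lines are list medians. After AML medium *Nfe2l1*, *Gsta4* and *Ephx1* passed as higher and *Hmox1*, *Mgst3*, *Me2*, *Fech* and *Nqo2* as lower, and after DC medium 0 genes passed.

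After DC medium none of the genes in these 7 lists passed the test. With 0 calls over all genes in that comparison this says little about the lists themselves. Their median differences lay between 0.01 and 0.06 on the log2 scale, against -0.01 over all genes.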

How the data were processed

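RNA was amplified and labelled with biotin by the WT Pico method for 1-colour arrays, per the labels' protocols. The authors deposited 1 log2 value for each transcript cluster and array. The submitters' processing notes name RMA and the package oligo without versions. Since RMA subtracts background, equalises the arrays by quantiles and condenses the probes of a cluster to 1 value, it gives no signal over background and compresses differences of dim genes. Of 22203 transcript clusters, 19572 had 1 gene symbol, 0 had several and 2631 had none, and for 55 symbols the cluster with the highest mean was kept, which left 19505 genes. Symbols and gene positions were checked against RefSeq GRCm38.p6, which changed 0 symbols.

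The 3 media were compared in 1 limma 3.58.1 fit (lmFit and eBayes, R 4.3.3) over 21 arrays without covariates. Tests were two-sided, with Benjamini-Hochberg adjustment over all genes and a threshold of 0.05, and "rose" or "fell" is used for genes past it. The arrays, 7 per group, limit the precision, with a median SE of 0.09. The script was tested on simulated data.

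Named were all 9 members, the called genes of 7 related lists, the 2 of each list with the largest moderated statistic between AML and fresh medium, *Nfe2l2*, *Keap1* and *Slc7a11*, and per member the genes with the highest Pearson r. The members and lists were chosen with earlier results of these data known. No 2 arrays were identical: the highest correlation between arrays was 0.996. In all, 32 alternatives were run: 1 array left out (21), the replicate number as a block, other normalizations, filters, variance settings and subsets of arrays.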

Additional observations from a re-analysis of the deposited data

Results flagged for a closer look

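Among 78 sets of 7 arrays (26 genes in 3 media), 1 held an array far from the others by Dixon's criterion, where chance gives about 5%. It was *Slc7a11* in DC medium, where replicate 4 had a log2 level of 5.38 against a median of 4.89. None of the 27 sets of the 9 genes held such an array.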

How the results depend on the processing

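All 32 alternatives kept the direction of *Hmox1* and *Pgd* in both comparisons with AML medium. For *Hmox1* the difference ranged from -0.83 to -0.53 against fresh medium (adjusted p 0.00567 to 0.171, called in 27) and from -1.09 to -0.51 against DC medium (0.00220 to 0.169, called in 30). For *Pgd* it ranged from -0.62 to -0.30 (0.00989 to 0.362, called in 5) and from -0.78 to -0.38 (0.00363 to 0.210, called in 21). Between AML and fresh medium 2 of the 9 genes passed with the replicate number as a block and with a further quantile normalization. The same 2 passed after leaving out genes below the 25th percentile. *Pgd* was the added gene (adjusted p = 0.0356, 0.0449 and 0.0469 in that order). Calls over all genes increased as well, to 1012, 612 and 646 from 541 in the main fit. Of the 9 genes 0 passed without AML replicates 4 and 5, in replicates 1 to 3 alone and in replicates 4 to 7 alone, and 0 to 2 with 1 array left out. Between AML and DC medium 1 passed with the 2 groups alone and in replicates 4 to 7, 0 in replicates 1 to 3 and without AML replicates 4 and 5, and 1 to 2 with 1 array left out. Between DC and fresh medium 0 passed under every alternative run.

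Genes called between AML and fresh medium numbered 1012 with the replicate block, 246 with the 2 groups alone, 111 without AML replicates 4 and 5, 374 in replicates 1 to 3, 32 in replicates 4 to 7 and 218 to 776 with 1 array left out. Between AML and DC medium they numbered 784, 249, 92, 318, 43 and 220 to 784 in the same order. Between DC and fresh medium 1 gene passed with the block, 2 with array weights, 1 without AML replicates 4 and 5, and 0 to 2 with 1 array left out. The labels do not say that replicate numbers pair the samples. Same-numbered arrays of different media had residual correlations of -0.11 to 0.36, 13 of 21 over 0.1. In 20 of 21 pairs the correlation was above the mean with the other numbers. Deviations from a group mean sum to 0, so this count mostly restates how many same-number correlations were positive. In 9 of 21 pairs an array was closest to its own number, a hint of pairing from the data and not from the design. Replicates 1 to 3 and 4 to 7 also lay apart on the first component, and the part of that split in these correlations was not tested. The labels describe no pairing and not every pair passed 0.1, so the fit without the block was kept. Variation shared by replicate number therefore stays in its residual spread, and calls depended on this choice. Between AML and fresh medium 541 genes passed without the block and 1012 with it.

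Among the 27 differences of the 9 genes and the called differences of the other lists, for which the alternatives were run, signs turned only where the difference was not called. Against fresh medium in AML these were *Txnrd1* without AML replicates 4 and 5 (-0.00069), *Srxn1* in replicates 1 to 3 (-0.063), and *Nqo1* (-0.16) and *Gclm* (-0.085) in replicates 4 to 7. Against fresh medium in DC these were *Gclc* with median centring (0.035), array weights (0.0079) and replicates 4 to 7 (0.068), *Hmox1* (-0.031), *Txnrd1* (-0.0025), *Pgd* (-0.049) and *Prdx1* (-0.013) in replicates 1 to 3, and *Nqo1* in replicates 4 to 7 (-0.14). Between AML and DC these were *Txnrd1* with quantile normalization (0.018) and in replicates 1 to 3 (0.15), and *Nqo1* (-0.019) and *Gclm* (-0.16) in replicates 4 to 7. With 1 array left out, *Srxn1* in AML ran from -0.047 to 0.062 and *Gclc* and *Nqo1* in DC from -0.035 to 0.046 and from -0.00093 to 0.13 against fresh medium, and between AML and DC *Nqo1* ran from -0.015 to 0.14, *Gclm* from -0.022 to 0.051 and *Txnrd1* from -0.075 to 0.059. The cause of these changes was not tested, and some settings held fewer arrays. RMA values give no detection call, which limits what can be said of *Nqo1* and *Srxn1*.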
